A study of Mus musculus with 3 samples.

Results

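The genes that make and remove reactive oxygen species were followed in mesangial cells sorted from adult mouse glomeruli. The members were all genes whose symbol names a glutathione transferase, glutathione peroxidase, peroxiredoxin, thioredoxin or glutaredoxin gene, a superoxide dismutase, catalase, an enzyme of glutathione synthesis, a core gene of the NRF2 arm or a subunit of the NADPH oxidases. This gave 79 of the 19938 genes named on the array. The rule selects genes by symbol alone, and it was set with earlier results of these data known.

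The 3 samples formed 1 group. They came from adult male CD-1 mice carrying the transgene Tg(Meis1-EGFP)FO156Gsat, a bacterial artificial chromosome in which Meis1 regulatory sequence drives green fluorescent protein. Each sample was 1 kidney, not pooled, whose glomeruli were collected by sieving, digested with trypsin and sorted by fluorescence. The labels give the cells as mesangial and name both the glomerular and the extraglomerular mesangium as their source. There was no sample of other cells and no treatment, so no comparison between conditions could be made. Expression in mesangial cells and RNA brought along by neighbouring cells cannot be told apart. Separate mice are not named for the kidneys, so the spread is that between these samples and may be technical.

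Superoxide is made by NADPH oxidases and by mitochondria. Superoxide dismutases turn it into hydrogen peroxide, which catalase, glutathione peroxidases and peroxiredoxins remove. The last of these groups is recharged by thioredoxin and the glutathione peroxidases by glutathione, and both reducing systems draw on NADPH. NRF2, encoded by Nfe2l2, is held down by Keap1 and, when released, raises many of these enzymes through the antioxidant response element. In the kidney, oxidase-derived superoxide has been studied in mesangial cells as part of the response to angiotensin II and high glucose.

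All values are deposited log2 signals, and means are given ± SD over n = 3 samples. Each array had a silent-gene threshold, the 95th percentile of 1269 probe sets of gene families foreign to kidney (keratin-associated proteins and the olfactory, vomeronasal and trace amine receptor families). It was 7.48, 7.46 and 7.40 on arrays 1, 2 and 3. A gene was called above it when it passed on all 3 arrays, and a stricter call raised each threshold by 1. Of the silent genes themselves, 4.71% passed the plain threshold and 0.958% the raised one. Probe sets differ in affinity, so each value is set against the threshold or against the same gene in another sample; genes are not ranked against each other. The margin of a gene is its smallest distance from the threshold over the 3 arrays, and is negative where the gene was not above it. All 10 mesangial markers passed the raised threshold, among them Itga8 at 12.96 ± 0.01 and Pdgfrb at 12.03 ± 0.06. All 12 endothelial markers passed the plain threshold and 8 (66.7%) the raised one, and of 7 measured podocyte markers 5 (71.4%) and 3 (42.9%) did. Of all named genes outside the silent reference, 58.0% passed the plain threshold and 32.7% the raised one.

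Of the 79 members 56 (70.9%) lay above the threshold, where 58.0% of the 18685 named genes outside the silent reference did. At the raised threshold 36 members (45.6%) remained, against 32.7% of named genes. The median of the members' means was 8.32, and that of all named genes 7.80. The number depended on how strict the threshold was, with 38 members above the 99th percentile of the silent reference, which 35.3% of named genes passed, and 65 above the 90th, which 68.8% of named genes passed. Another 16 symbols that the rule would take, among them Prdx5, Prdx6, Gsta1 and Gsta2, were not analysed here.

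**Figure D1:**
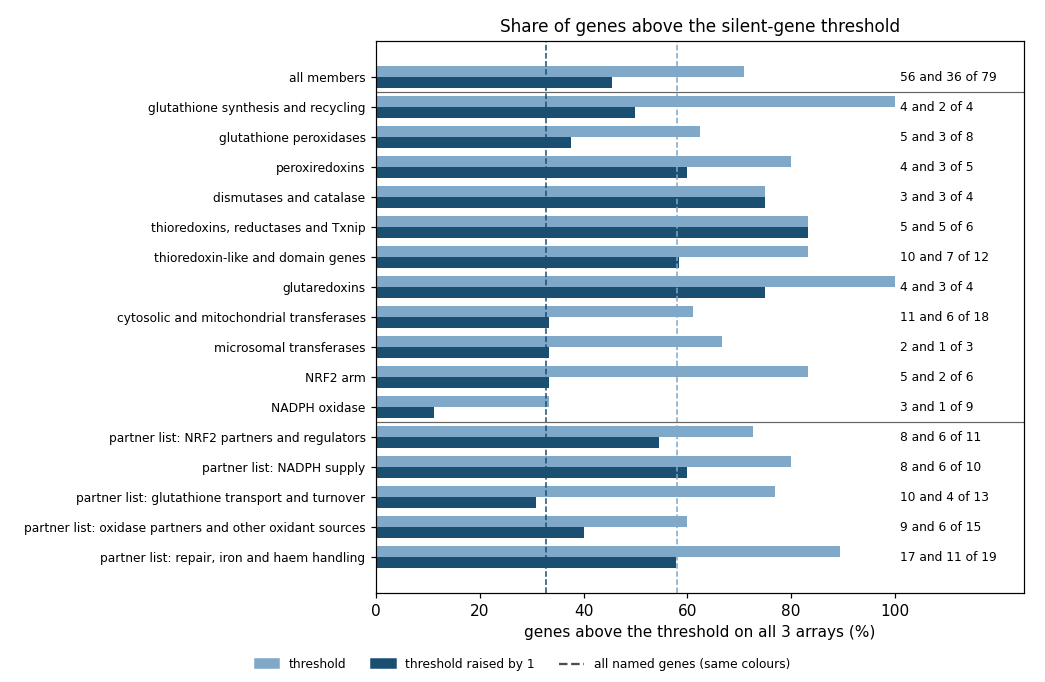
Bars give the percentage of measured genes above the silent-gene threshold (light) and above the threshold raised by 1 (dark) on all 3 arrays, for all members, each family and the partner lists, with the counts at the right and the shares of all named genes as dashed lines. The NADPH oxidase genes, with 3 and 1 of 9, had the lowest shares of any family, and all glutathione synthesis and glutaredoxin genes passed the plain threshold.

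Of the 6 genes of the thioredoxin system 5 (83.3%) were above the threshold, against 58.0% of named genes. The cytosolic thioredoxin gene Txn1, which reduces peroxiredoxins and other proteins, had 12.59, 12.59 and 12.61 in samples 1, 2 and 3 (12.60 ± 0.01). Its inhibitor gene Txnip, whose product binds thioredoxin and restrains glucose uptake, had 12.15, 12.34 and 12.23 (12.24 ± 0.10). The range over the samples was 0.02 for Txn1 and 0.20 for Txnip. The mitochondrial thioredoxin gene Txn2 had 9.63 ± 0.01. Of the reductases that recharge thioredoxin with NADPH, the cytosolic Txnrd1 had 8.88 ± 0.04 and Txnrd3, best known from testis, 8.63 ± 0.14. The mitochondrial reductase gene Txnrd2 had 7.16 on each array and was the 1 member of this group of 6 that was not above the threshold.

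Peroxiredoxins, the thiol peroxidases that thioredoxin serves, lay above the threshold in 4 of 5 cases (80%), against 58.0% of named genes. Prdx2, a cytosolic member, had 11.62, 11.56 and 11.73 in samples 1, 2 and 3. Prdx1, also cytosolic, had 10.87, 11.05 and 11.11, and Prdx4, the member of the endoplasmic reticulum, 9.93, 9.58 and 9.64. All 3 genes passed the raised threshold in every sample. The mitochondrial Prdx3 had 7.47, 7.75 and 7.75 with a margin of -0.01, set by sample 1, and it was above the threshold when that sample was left out. The pseudogene Prdx6-ps2, which the name rule takes in, had 7.58 ± 0.07, within 0.1 of the threshold. Probe sets for one gene did not always give one value: a second probe set for Prdx2 had 9.28 ± 0.01 and a second for Prdx1 10.37 ± 0.10. Both genes have processed copies elsewhere in the genome, and the signal of near-identical copies cannot be separated.

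Glutathione peroxidases split by member. Gpx4, the selenoenzyme that reduces lipid hydroperoxides in membranes and protects against ferroptosis, had 11.50, 11.28 and 11.47 in samples 1, 2 and 3. Gpx1, the general cytosolic enzyme, had 10.28, 10.28 and 10.35, and Gpx8, an enzyme of the endoplasmic reticulum membrane, 10.75, 10.74 and 10.75. These 3 genes passed the raised threshold in every sample. Gpx7, also of the endoplasmic reticulum, had 7.61 ± 0.07 and lay within 0.1 of the threshold. Gpx2, the gastrointestinal enzyme, had 7.15 ± 0.07, while Gpx6 and Gpx5, known from olfactory epithelium and epididymis, had 6.75 and 4.95 on every array. None of the last 3 genes was above the threshold.

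Gpx3, the secreted plasma peroxidase, which in kidney is known chiefly from tubule cells, had the widest range of all members above the threshold. It had 9.07, 8.17 and 7.50 in samples 1, 2 and 3, so that sample 1 was highest, 2.96-fold above sample 3, and sample 3 was only 0.10 above its threshold. Of the 10842 named genes above the threshold, 13 had a range at least as wide. Of 22 tubule markers 4 had a range over 0.5 in these samples, and they are named here for that reason, while 10 had 1 value on all 3 arrays. Umod, for the uromodulin of the thick ascending limb, had 9.51, 9.18 and 8.22. Kap, an androgen-regulated gene of the proximal tubule, had 8.44, 8.51 and 7.17, and Miox, the proximal tubule myo-inositol oxygenase, 7.40, 6.15 and 6.13. Sample 3 was lowest for Umod and Kap, as it was for Gpx3, although Kap did not fall from sample 1 to sample 2. Miox, below the threshold on every array, was nearly equal in samples 2 and 3. Calb1, of the distal tubule, ran differently, with 7.72, 8.66 and 8.49. The summed linear signal of the 22 tubule markers was 4178, 4141 and 3530 in samples 1, 2 and 3. Of these markers 9 were above the threshold and 0 above the raised one, which 58.0% and 32.7% of named genes passed. Of the 12 proximal tubule markers 4 (33.3%) were above the threshold, namely Slc34a1 at 8.15 ± 0.16, Hnf4a at 8.04, Slc5a2 at 7.81 and Aqp1 at 7.56. Among the others, Fbp1 at 6.06 and Lrp2 at 6.79 lay below the threshold on every array. Slc22a8, at 7.56, 7.44 and 7.44 in samples 1, 2 and 3, failed only in sample 2, with a margin of -0.02. Kap was above the threshold in samples 1 and 2 and failed only in sample 3. The part of tubule RNA in the Gpx3 values was not tested.

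**Figure D2:**
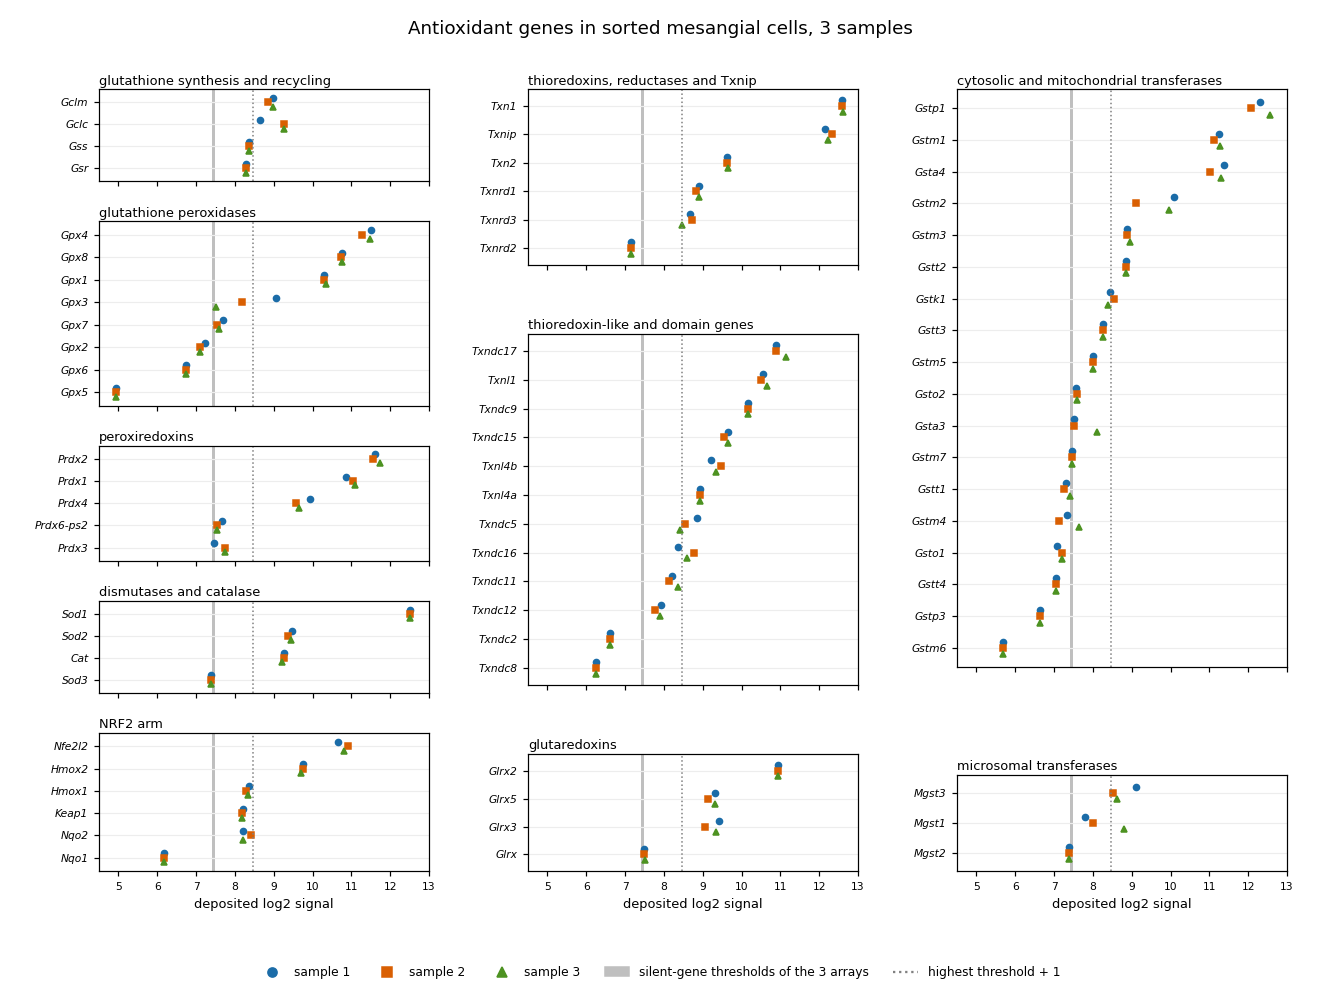
Each symbol is the deposited log2 signal of 1 gene in 1 sample, by family, for the 70 members that are not NADPH oxidase genes. The grey band spans the silent-gene thresholds of the 3 arrays (7.40 to 7.48) and the dotted line is the highest threshold plus 1. Most genes have nearly the same value in the 3 samples, and Gpx3, Gstm2 and Mgst1 spread most.

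Both intracellular superoxide dismutases and catalase lay above the raised threshold. The copper-zinc enzyme gene Sod1 had 12.50 on each of the 3 arrays. The mitochondrial manganese enzyme gene Sod2 had 9.46, 9.37 and 9.44 in samples 1, 2 and 3, and the peroxisomal catalase gene Cat 9.26, 9.28 and 9.20. The samples were nearly equal in these genes. The secreted dismutase gene Sod3 had 7.39 on each array, with a margin of -0.09.

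The enzymes that make and recycle glutathione were above the threshold in all 4 cases, against 58.0% of named genes. Gclc, the catalytic subunit of the rate-limiting glutamate-cysteine ligase, had 8.64, 9.25 and 9.25 in samples 1, 2 and 3. Sample 1 lay 0.62 below the other samples, which carried the same value. The modifier subunit gene Gclm had 8.98, 8.86 and 8.98, without a low value in sample 1. Glutathione synthetase, Gss, had 8.35 on each array and glutathione reductase, Gsr, 8.29 ± 0.01, and both passed the plain threshold but not the raised one.

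All 4 glutaredoxin genes lay above the threshold, against 58.0% of named genes. Their products use glutathione to reduce protein disulfides or carry iron-sulfur clusters. The mitochondrial Glrx2 had 10.94 on each array. The iron-sulfur cluster genes Glrx5 and Glrx3 had 9.25 ± 0.10 and 9.27 ± 0.18, in both cases lowest in sample 2. The classical cytosolic gene Glrx had 7.50 ± 0.00 and passed by 0.02.

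The symbols Txnl and Txndc cover proteins that carry a thioredoxin fold but do varied work. Of these 12 genes 10 (83.3%) were above the threshold, against 58.0% of named genes. Txndc17, a cytosolic thioredoxin-related protein, had 10.97 ± 0.14, Txnl1, a protein bound to the proteasome, 10.57 ± 0.07, and Txndc9, a partner of a cytosolic chaperonin, 10.17 on each array. Txnl4b and Txnl4a, which belong to the splicing machinery rather than to peroxide removal, had 9.34 ± 0.14 and 8.92. Txndc5, a disulfide isomerase of the endoplasmic reticulum, had 8.86, 8.54 and 8.41 in samples 1, 2 and 3. The sperm thioredoxin genes Txndc8 and Txndc2, at 6.24 and 6.62 on every array, were the members of this group not above the threshold.

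Glutathione transferases conjugate glutathione to electrophiles. Of 18 cytosolic and mitochondrial genes 11 (61.1%) were above the threshold, against 58.0% of named genes, and of 3 microsomal genes 2 were. At the raised threshold 6 of the 18 remained, a share of 33.3% against 32.7% of named genes. Gstp1, the pi-class enzyme, had 12.30, 12.06 and 12.56 in samples 1, 2 and 3. Gsta4, which detoxifies the lipid peroxidation product 4-hydroxynonenal, had 11.38, 11.01 and 11.29, and the mu-class Gstm1 11.24, 11.11 and 11.26. Sample 2 was lowest in each of these genes. Gstp1 has a near-identical neighbour, Gstp2, and the probe sets annotated to both were not used, so the signal given for Gstp1 may include it.

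Within the mu class, 7 neighbouring genes on chromosome 3 differed in their calls. In chromosomal order, Gstm5 had 7.997, Gstm7 7.47 and Gstm6 5.67, each identical on the 3 arrays, followed by Gstm3 at 8.91 ± 0.05, Gstm2 at 9.72 ± 0.54, Gstm1 at 11.21 ± 0.08 and Gstm4 at 7.37 ± 0.26. Gstm5, Gstm3, Gstm2 and Gstm1 were above the threshold, and Gstm7, Gstm6 and Gstm4 were not, although Gstm7, with a margin of -0.01, passed when sample 1 was left out. The mu-class genes are close in sequence, so cross-hybridisation between them was possible and was not tested. The call of Gstm3 held for the probe set with the higher mean, while a second probe set for the gene had 7.22 ± 0.04 and was not above the threshold. Gstm2 had 10.10, 9.11 and 9.97 in samples 1, 2 and 3, 1.99-fold between the highest and the lowest, with sample 2 low. Its neighbour Gstm1 ranged over 0.15.

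The theta-class cluster on chromosome 10 was divided as well. Gstt3 and Gstt2, the outer genes, had 8.26 and 8.85 on each array and were above the threshold, whereas Gstt1 at 7.32 ± 0.08 and Gstt4 at 7.05, which lie between them, were not. Among the remaining cytosolic and mitochondrial genes, Gstk1, a mitochondrial and peroxisomal enzyme, had 8.47 ± 0.08. Gsto2 at 7.58 ± 0.01 passed by less than 0.1, and Gsto1 at 7.16 ± 0.07 and Gstp3 at 6.64 did not pass. Gsta3, an enzyme with steroid isomerase activity, had 7.51, 7.51 and 8.10 in samples 1, 2 and 3, high in sample 3 and at the threshold elsewhere.

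The microsomal transferases moved apart between samples. Mgst1, a membrane-bound transferase and peroxidase, had 7.80, 8.01 and 8.79 in samples 1, 2 and 3, highest in sample 3 by 1.99-fold over sample 1. Mgst3, which also acts in leukotriene synthesis, had 9.10, 8.51 and 8.61, highest in sample 1. Mgst2 had 7.39 on each array and was not above the threshold. The ranges of 0.99 and 0.59 were matched or passed by 0.627% and 2.81% of the named genes above the threshold.

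**Figure D3:**
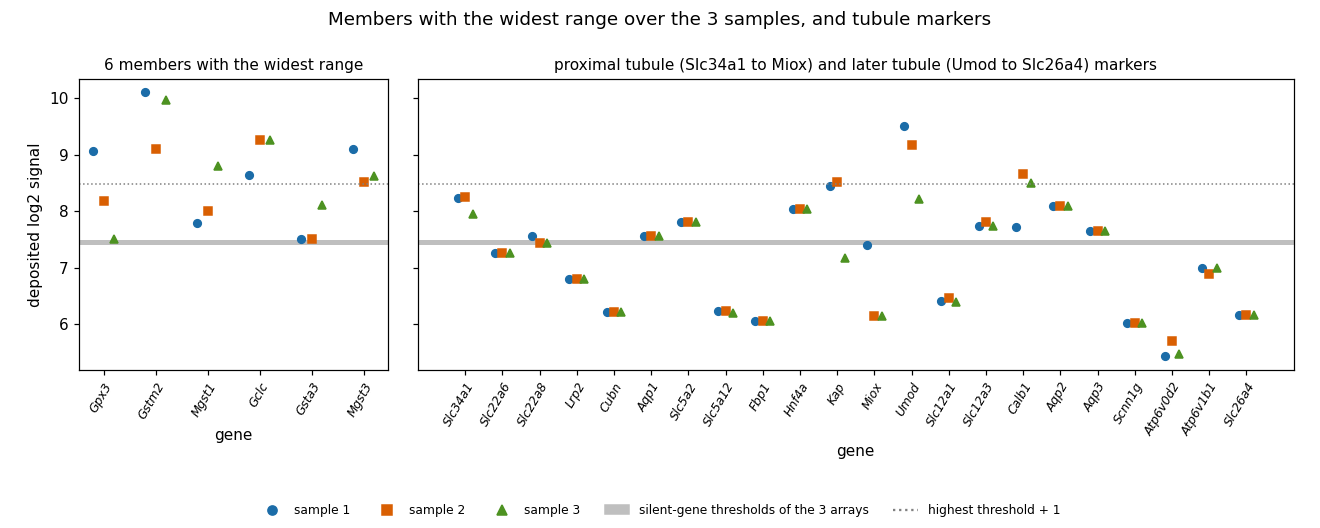
Symbols give the deposited log2 signal in each of the 3 samples for the 6 members above the threshold with the widest range (left) and for all 22 measured tubule markers (right), with the silent-gene thresholds as a grey band and the highest threshold plus 1 as a dotted line. Gpx3 is 9.07 in sample 1 and 7.50 in sample 3, and Umod 9.51 and 8.22, while most tubule markers have nearly the same value in each sample.

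The median SD of the members above the threshold was 0.07, or 0.09 without the 9 genes that had 1 value on all arrays, where named genes had 0.02, or 0.07 without such genes. With 1 sample left out the members' median SD was 0.050 without sample 1, 0.037 without sample 2 and 0.055 without sample 3. These are SDs of 2 values, which tend to be smaller than SDs of 3. In addition, 32 to 34 of the 79 members had tied values in any pair of samples. The lower values are therefore no result about a sample. Identical values made up 16.1% of members above the threshold and 39.4% of named genes above it, and such values make an SD too small. A range over 0.5 was seen in 6 of the 56 members (10.7%) and in 4.33% of named genes above the threshold. Sample 2 was the lowest of the 3 samples in 22 of the 56 members (39.3%), against 15.4% of named genes. Among these 22 were 5 transferases, 5 of the Txnl and Txndc genes and the peroxidase genes Gpx4, Gpx8 and Gpx7. Samples 1 and 3 were lowest in 10 and 7 members (17.9% and 12.5%), against 18.8% and 10.8% of named genes. A tied lowest value was not counted. Genes with identical values on all arrays, more frequent among named genes, could therefore not enter these counts. The median distance of sample 2 from the mean of the other samples was only -0.01 over the 56 members. These shares are descriptions, since no test of a single sample against the rest was made.

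The NRF2 arm was above the threshold in 5 of 6 genes (83.3%), against 58.0% of named genes. Nfe2l2 had 10.66, 10.92 and 10.80 in samples 1, 2 and 3, and Keap1, the adaptor that directs NRF2 to degradation, 8.22, 8.20 and 8.20. Hmox2, the constitutive haem oxygenase, had 9.76, 9.76 and 9.71. Hmox1, the inducible haem oxygenase and a classical NRF2 target, had 8.35, 8.28 and 8.34 and passed the plain but not the raised threshold. Nqo2, a quinone reductase, had 8.21, 8.40 and 8.21. Nqo1, the quinone reductase most often used to report NRF2 activity, had 6.18 on each array, with a margin of -1.30. Nfe2l2 and Hmox2 were the 2 genes of this arm above the raised threshold, a share of 33.3% against 32.7% of named genes.

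Promoter sequence was available for 69 of the 79 members in RefSeq's GRCm38.p6 table, and the 250 bases before each start were searched on both strands for the core of the antioxidant response element, TGACNNNGC. A match was present for 12 of the 69 (17.4%) and for 11.5% of all 27025 symbols in the table. By call, 10 of 48 members above the threshold and 2 of 21 not above it had a match. The AP-1 motif TGACTCA, which can overlap the response element, was found for 5 of the 69 (7.25%), against 5.16% of all symbols. A match is a description and does not show that a factor bound there, and Nqo1 had neither motif in this window. The stretches of 4 genes that were above the threshold and had a core match, and of Gstp1 with its AP-1 match, are shown because they set the letters beside the values. They read 5′ to 3′ on the gene's strand, and capitals mark the match, which lies on the opposite strand in all of them.
Prdx1: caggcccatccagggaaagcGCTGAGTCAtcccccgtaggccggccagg
Gclm: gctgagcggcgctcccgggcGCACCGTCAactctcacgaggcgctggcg
Mgst1: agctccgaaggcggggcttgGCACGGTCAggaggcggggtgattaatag
Sod1: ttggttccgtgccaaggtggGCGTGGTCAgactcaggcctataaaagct
Gstp1: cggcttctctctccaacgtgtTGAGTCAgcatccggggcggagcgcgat
These stretches lie at chr4:116685446-116685494 on the plus strand for Prdx1, chr3:122245403-122245451 on the plus strand for Gclm and chr6:138140451-138140499 on the plus strand for Mgst1. The Sod1 stretch is chr16:90220686-90220734 on the plus strand and the Gstp1 stretch chr19:4037959-4038007 on the minus strand. In Prdx1, whose mean was 11.01, the core match also holds an AP-1 match, 133 bases before the start. Gclm at 8.94 and Mgst1 at 8.20 had core matches 134 and 56 bases before the start. The Sod1 match also lay 56 bases before the start.

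The other regulators of NRF2 were mostly above the threshold, in 8 of 11 genes (72.7%), against 58.0% of named genes. Cul3 and Rbx1, which form the ubiquitin ligase that Keap1 serves, had 12.15 and 11.01 ± 0.02. The autophagy receptor gene Sqstm1, whose product competes for Keap1, had 10.34 ± 0.07 and the related factor gene Nfe2l1 10.51 ± 0.03. The small Maf partner gene Mafg had 9.63 and Mafk 8.31, and the repressor gene Bach1, which competes for the response element, 8.93, each identical on the 3 arrays. Maff at 7.07, Nfe2 at 7.05 ± 0.05 and Bach2 at 6.83 ± 0.04 were not above the threshold.

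Genes that supply NADPH were above the threshold in 8 of 10 measured cases (80%), against 58.0% of named genes. The cytosolic isocitrate dehydrogenase gene Idh1 had 11.36, its mitochondrial counterpart Idh2 10.18 ± 0.11 and the transhydrogenase gene Nnt 9.39 ± 0.01. The malic enzyme genes Me1 at 7.42 and Me3 at 6.86 were not above the threshold. Of 13 genes of glutathione transport and turnover 10 (76.9%) passed, against 58.0% of named genes. At the raised threshold 4 (30.8%) remained, against 32.7% of named genes. The amino acid transporter heavy chain gene Slc3a2 had 9.91 ± 0.04, while Slc7a11, the light chain that with it imports cystine for glutathione synthesis, had 5.93 on each array, with a margin of -1.55. Hagh, the glyoxalase that regenerates glutathione, had 9.10, 8.38 and 8.27 in samples 1, 2 and 3, and Glo1, the enzyme before it in that pathway, had 8.51, 8.72 and 9.10. Sample 1 was the highest for Hagh and the lowest for Glo1.

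Genes of repair, iron and haem handling were above the threshold in 17 of 19 measured cases (89.5%), against 58.0% of named genes. At the raised threshold 11 (57.9%) remained, against 32.7% of named genes. The ferritin heavy chain gene Fth1 had 13.33 ± 0.06, the selenoprotein genes Selenow and Selenop 12.63 ± 0.12 and 11.25, and the ferritin light chain gene Ftl1 11.40 ± 0.21. The sulfiredoxin gene Srxn1, a known NRF2 target that repairs overoxidised peroxiredoxins, had 8.74 ± 0.02. Metallothionein gene Mt2 had 8.54, 7.96 and 8.67 in samples 1, 2 and 3, low in sample 2. Sesn2 at 7.47 ± 0.03 and the methionine sulfoxide reductase gene Msra at 6.99 were not above the threshold. Over all 5 partner lists 52 of 68 measured genes (76.5%) were above the threshold, against 58.0% of named genes.

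NADPH oxidases pass electrons from NADPH to oxygen, and most of their genes were not above the threshold. Of 9 measured genes 3 (33.3%) were above it, against 58.0% of named genes, and Cyba alone passed the raised one. Cyba, whose product p22phox is the membrane partner of several NOX enzymes, had 8.76, 8.93 and 8.88 in samples 1, 2 and 3. The organiser gene Noxo1 had 7.82 on each array, and the cytosolic organiser gene Ncf1, for p47phox, 7.57, 7.58 and 7.57, within 0.1 of the threshold. The activator gene Noxa1, at 7.20, and Ncf4, for p40phox, at 6.72, were not above the threshold on any array.

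None of the measured catalytic subunits was above the threshold. Nox4, the constitutively active enzyme described in kidney and mesangial cells, had 5.78 on each of the 3 arrays, Nox1 had 5.81 and Nox3 6.06, each identical on the arrays. Cybb, which encodes the phagocyte subunit NOX2, had 6.06, 5.99 and 5.99. The margins of Nox3, Cybb, Nox1 and Nox4 were -1.42, -1.47, -1.67 and -1.70, and values identical across arrays gave no estimate of error. A low value from 1 probe set does not show that the RNA was absent, because a weak probe set would give the same reading.

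The partners that oxidases share with other pathways were above the threshold. The small GTPase genes Rap1a and Rac1, which act in many processes, had 11.87 ± 0.13 and 11.69 ± 0.03, and Sh3pxd2a, an organiser related to p47phox and known from podosomes, 11.36 ± 0.24. Poldip2, whose product binds p22phox, had 9.03, and Cybc1, a chaperone for the NOX2 complex, 8.62 ± 0.07. The dual oxidase genes Duox1 at 6.65 and Duox2 at 6.96 were not above the threshold, nor were their maturation factor genes Duoxa1 at 7.35 and Duoxa2 at 6.82 ± 0.06. Of other oxidant sources, the xanthine dehydrogenase gene Xdh had 8.84 ± 0.05, while the monoamine oxidase genes Maoa and Maob had 7.09 ± 0.16 and 6.39. In this list 9 of 15 genes (60%) were above the threshold, against 58.0% of named genes. Among them Rac2 and Aox1 passed by only 0.10 and 0.01. At the raised threshold 6 genes (40%) remained, against 32.7% of named genes.

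Phagocytes carry the NOX2 complex, and most of their markers were not above the threshold. Of 12 macrophage markers 4 (33.3%) were above it, against 58.0% of named genes. These were Mrc1, Cx3cr1 at 8.03, Cd68 at 7.85 ± 0.07 and Aif1 at 7.75. Among the other 8, Adgre1 at 5.56, Itgam at 5.78 and Ptprc at 5.95 lay below the threshold on every array, as did Cybb. C1qa, at 7.46 on each array, was close to it: it passed on arrays 2 and 3, with a margin of -0.02 set by array 1. Mrc1, the mannose receptor gene, which other cells of the kidney also express, was at 11.81 ± 0.10 and was the only marker of this list above the raised threshold. None of 10 neutrophil markers was above the threshold. The summed linear signal of both lists was 6148, 5631 and 5797 in samples 1, 2 and 3, most of it from Mrc1.

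**Figure D4:**
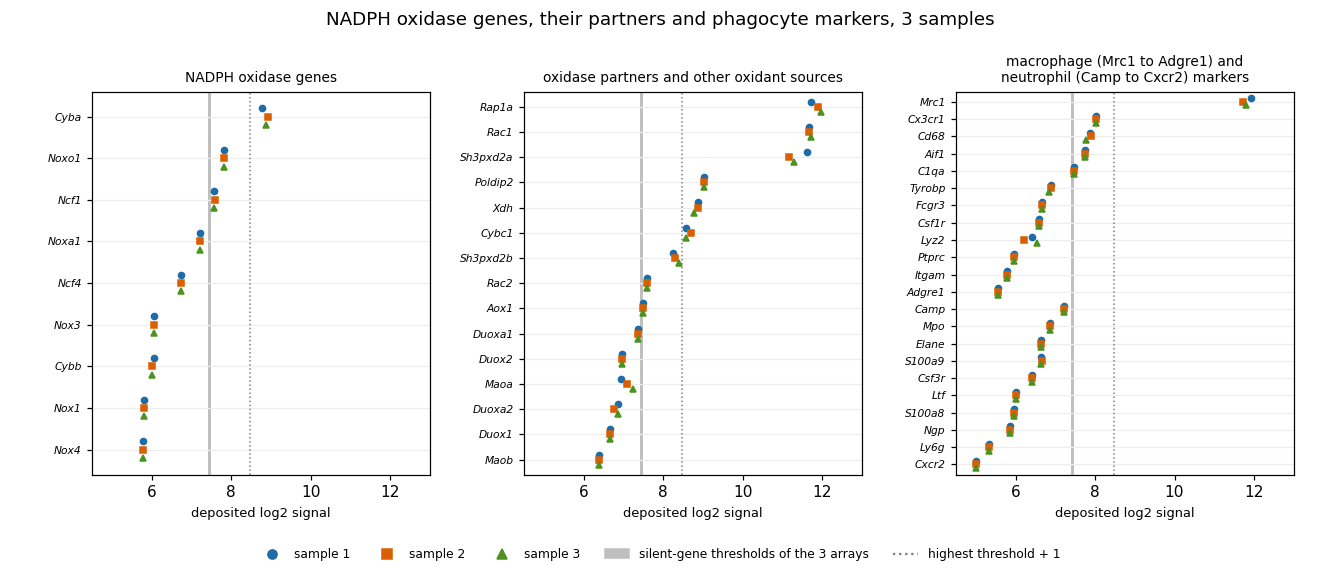
Symbols give the deposited log2 signal in each of the 3 samples for the 9 NADPH oxidase genes (left), the 15 genes of oxidase partners and other oxidant sources (middle) and 22 phagocyte markers (right), with the silent-gene thresholds as a grey band and the highest threshold plus 1 as a dotted line. Cyba is the only oxidase gene right of the dotted line, and Nox4, Nox1, Cybb and Nox3 lie between 5.78 and 6.06.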

How the data were processed

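RNA of 3 samples was measured on 1 Affymetrix mouse gene array each. Per the submitters' processing notes, the deposited log2 probe set signals came from Affymetrix Expression Console. How it corrected background and summarised probes, and its version, is not given in the sources used here. Base 2 was inferred from the highest value, 14.39. Values were used as deposited. Array medians were 7.53, 7.56 and 7.54, and 40.2% of 35557 probe sets had 1 identical value on all 3 arrays, which understates their error. Precision is limited by having 3 arrays.

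The platform annotation gave 21789 probe sets exactly 1 symbol, 1621 several and 12147 none. The 21698 symbols with a match were updated by Entrez number through RefSeq's GRCm38.p6 table. The probe set with the highest mean stood for a gene. The threshold and the calls were computed in Python 3.11.15 with pandas 2.3.3 and checked on simulated data. No test between groups was possible, and no set test was made. The plan was to name all members of families of up to 8, the highest 4 and lowest 3 of larger ones and the 6 widest ranges. It also took the highest 3 and lowest 2 of each partner list, and left every other member and marker open to naming. Txndc15, Txndc12, Esd, Ggt5 and Abcc4 fell under this plan but are not described above. Genes named beyond it, such as Hagh and Glo1, were chosen after their values were seen. Members and lists were chosen with earlier results of these data known. Alternatives changed the threshold, reference families, call rule, probe set choice, normalization and arrays.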

Additional observations from a re-analysis of the deposited data

How the results depend on the processing

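The number of members above the threshold was 56 in the analysis given, 65 at the 90th and 38 at the 99th percentile of the silent reference, 58 with olfactory receptors alone or with the mean of the arrays (68.8%, 35.3%, 59.9% and 59.6% of named genes), and 56 with the median of a gene's probe sets or after quantile normalization. Leaving out 1 array gave 56 to 58. At the 99th percentile 18 members were lost and the count at the threshold raised by 1 fell from 36 to 21; among those lost were Gpx3, Mgst1, Hmox1, Keap1, Gss and Gsr. At the 90th percentile 9 were gained, among them Prdx3, Sod3 and Txnrd2. Over all alternatives the call of 27 of the 79 members changed at least once and that of 52 did not. The median SD of members above the threshold was 0.0733 with all arrays and ranged from 0.0372 (without sample 2) to 0.0548 (without sample 3) when 1 array was left out. With 1 array left out each SD rests on 2 values and tends to be smaller for that reason. No paired analysis was possible because there was 1 group. Intensities close to the threshold limit the calls of the 10 members within 0.1 of it.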
